A study of Mus musculus with 4 samples.

Results

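In-frame T-cell receptor β (TRB) rearrangements whose CDR3 holds a stop codon numbered 1106 of 261962 rows in the clonotype tables, or 0.422%. A row was a member if the translated CDR3 carried a stop and the junction kept the reading frame between V and J. The remaining rows were 22386 out-of-frame rearrangements and 238470 productive ones, which are in frame and without a stop. The rearrangements came from CD8+ T cells (DAPI-negative, CD45+, CD3+) sorted from mouse livers with metastases of MC38, 14 days after the tumour cells were injected. MC38 is a colon adenocarcinoma line, although the labels call the tumours melanomas. Mice lacking Vsig4 (Vsig4-/-), which encodes a complement receptor of liver macrophages, were compared with wild-type mice, with 2 libraries each. All mice carried MC38 cells. Separate animals per library are not stated, so the spread behind each p-value may be technical in part. The tables hold TRB sequences alone, so the sorted cell type was not checked against marker genes, nor the genotype against Vsig4 transcripts. Totals ran from 901567 to 1269480 counts per library.

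TRB genes are assembled in developing thymocytes from V, D and J segments, with bases trimmed from the segment ends and untemplated bases added between them. Trimming and addition make the frame of the joint a matter of chance, and a joint that keeps the frame can still carry a stop codon. Such an allele encodes no receptor chain and stays in a T cell whose other TRB allele made one. Transcripts with an early stop codon are targets of nonsense-mediated decay.

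The stop codons had 4 sources, read from the deposited alignments. In 374 rows the stop lay within the untrimmed germline end of the V segment, in 209 it came from a base within the J segment that differed from the germline, and in 39 from such a base within the V segment. The other 484 were classed as junction stops. In nearly all of these the codon held bases assigned to no segment or bases of more than 1 segment. In 14 it lay wholly within the aligned D segment. All 374 germline stops belonged to TRBV4 (Vβ10). The ends of the V segments inside the CDR3 are shown for TRBV4 and for TRBV2 and TRBV5, its closest matches, with the stop codon in capitals.
TRBV4: tgtgccagcagcTAAga
TRBV2: tgtgccagcagccaaga
TRBV5: tgtgccagcagccaaga
The TRBV4 end differed from each of the other ends by C13T over 17 bases, counted from 1 at the first base of the conserved cysteine codon. Trbv4 lies at chr6:41059443-41059886, Trbv2 at chr6:41047556-41047995 and Trbv5 at chr6:41062359-41062803 in GRCm38.p6 (RefSeq). TRBV4 was the 1 segment of the 24 V segments with a complete germline end that carried an in-frame stop there. No J segment held a stop in its own frame, and the D segments TRBD1 (gggacagggggc) and TRBD2 (gggactgggggggc) held none in any of the 3 frames. The 14 stop codons within the aligned D segment therefore differed from the germline D. They stay among the junction stops, since substitutions were sought in V and J only.

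Stop rearrangements were a small share of in-frame clonotypes in every library. There were 217 and 252 in the Vsig4-deficient libraries 1 and 2, against 241 and 396 in the wild-type libraries 1 and 2. They made up 0.459% (95% Wilson interval 0.402% to 0.525%) and 0.358% (0.317% to 0.405%) of in-frame clonotypes in the Vsig4-deficient libraries, against 0.504% (0.445% to 0.572%) and 0.534% (0.484% to 0.589%) in the wild-type libraries. The shares of the genotypes did not overlap, although the intervals of Vsig4-deficient 1 and both wild-type libraries did. The mean was 0.409% ± 0.0717 in Vsig4-deficient libraries, against 0.519% ± 0.0210 in the wild type (SD, n = 2 per genotype), a difference of -0.11 percentage points. An exact permutation test, two-sided, gave p = 0.333, the smallest p that 2 against 2 libraries allow.

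By counts the share was lower still. Stop rearrangements held 735 and 811 counts in Vsig4-deficient libraries, against 957 and 1236 in wild-type libraries. That was 0.0766% and 0.0660% of in-frame counts in Vsig4-deficient libraries, against 0.109% and 0.144% in wild-type libraries, with a difference in means of -0.0553 percentage points (exact permutation p = 0.333, two-sided). The genotypes did not overlap, and did not after each table was drawn down to equal depth, where the difference was -0.0553 by counts and -0.132 by clonotypes. The libraries were made from total RNA, so fewer cells with a stop allele and less RNA per cell cannot be told apart. Set against out-of-frame clonotypes the groups overlapped: there were 4.35 and 5.12 stop rearrangements per 100 out-of-frame ones in Vsig4-deficient libraries, against 5.04 and 5.15 in wild-type libraries.

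**Figure D1:**
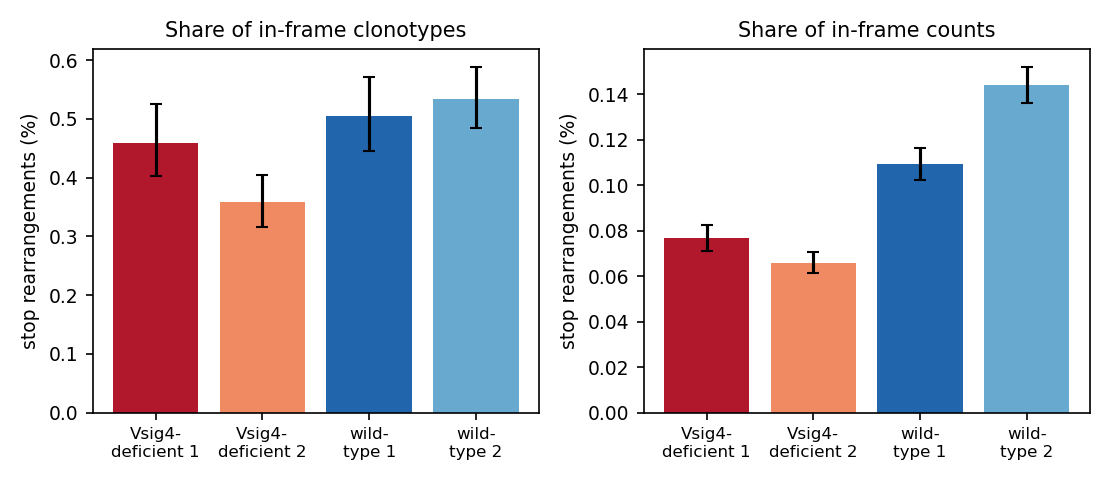
Share of in-frame clonotypes (left) and of in-frame counts (right) held by rearrangements with a stop codon, in percent, 1 bar per library with its 95% Wilson interval, which covers counting error only. Both Vsig4-deficient bars are lower than both wild-type bars in each panel.

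The first stop sat at codon 5 of the CDR3 in 526 rows, 47.6% of all. Counted from the conserved cysteine codon as 1, codon 5 held 112 and 99 rows in Vsig4-deficient libraries, against 117 and 198 in wild-type libraries. Without the TRBV4 germline stops, codon 5 still held 23.4% and 17.3% of the remaining rows in Vsig4-deficient libraries, against 23.5% and 20.2% in wild-type libraries. Junction stops had a median position of codon 6, stops by substitution in J of codon 11, 3 codons from the CDR3 end, and stops by substitution in V of codon 1. No row had its first stop at codon 2, and 18 rows held 2 stop codons. The stop was TAA in 574 rows, TAG in 285 and TGA in 247.

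**Figure D2:**
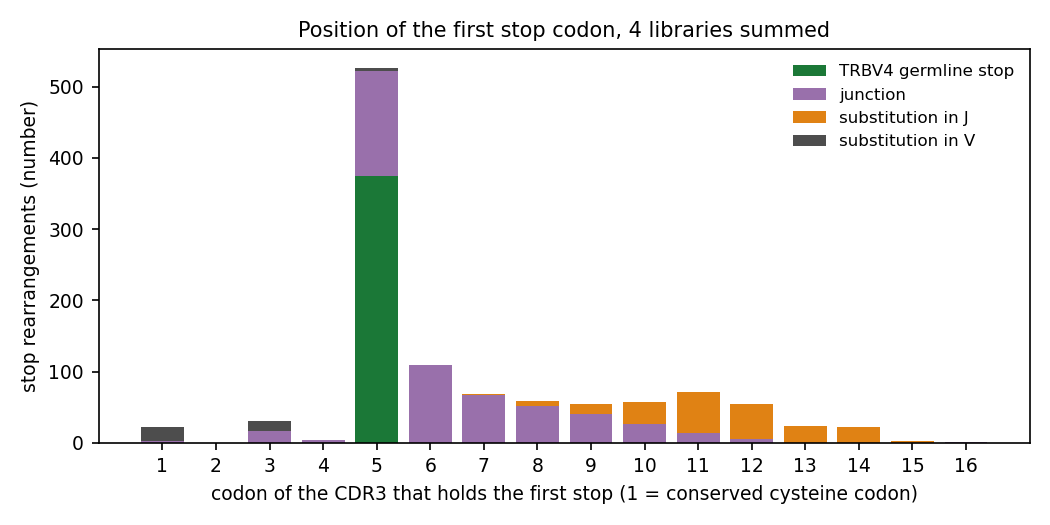
Number of stop rearrangements by the CDR3 codon that holds the first stop, over the 4 libraries, stacked by the source of the stop. The bar at codon 5 reaches 526 and is mostly TRBV4 germline stops, and stops by substitution in J lie at codons 7 to 15.

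TRBV4 was the V segment of 436 stop rows, 39.4% of them. It made up 42.4% and 31.7% of stop rows in Vsig4-deficient libraries, and 39.8% and 42.4% in wild-type libraries. Among out-of-frame rows it made up 7.79% and 6.99% in the Vsig4-deficient pair, against 8.33% and 8.59% in the wild-type pair. Among productive rows the shares were 3.82%, 3.40%, 4.21% and 4.47% in the same order of libraries. Vsig4-deficient 2 had the lowest TRBV4 share in each class.

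Trimming of the TRBV4 end separated the classes. The stop codon is whole once 15 V bases are kept, and a germline copy of it is by definition missing from productive rows. Of TRBV4 rows, 80, 67, 76 and 148 stop rows kept the first 15 germline bases in Vsig4-deficient 1 and 2 and wild-type 1 and 2. Out-of-frame TRBV4 rows kept them in 41.1% and 39.8% of cases in Vsig4-deficient libraries, and in 45.0% and 41.3% in wild-type libraries. Productive TRBV4 rows kept 12 V bases at the median, and out-of-frame rows 14. TRBV2, which reads caa in place of the stop, kept its first 15 bases in 77.6% of productive and 69.4% of out-of-frame rows, and TRBV5 in 59.0% and 61.9%. For each 100 out-of-frame TRBV4 rows with the whole germline stop codon there were 50 and 48.9 in-frame ones in Vsig4-deficient libraries, and 42.5 and 54.2 in wild-type libraries (48.9 ± 4.86 over the libraries, SD, n = 4).

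**Figure D3:**
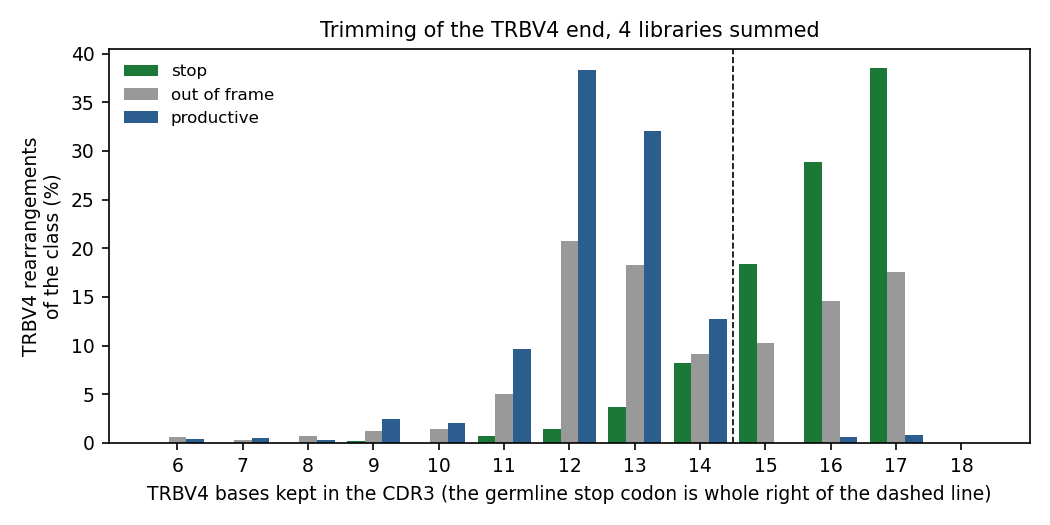
Share of the TRBV4 rearrangements of each class, in percent, by the number of TRBV4 bases kept in the CDR3 (6 to 18 shown), over the 4 libraries. Stop rows lie mostly at 15 to 17 bases and productive rows mostly at 12 and 13, and out-of-frame rows cover both ranges. Productive rows at 16 and 17 bases carry a substitution in the stop codon.

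TRBV4 also allowed the counts of matched alleles to be compared. Stop rows that kept the germline stop averaged 1.20 and 0.88 on the log2 count scale in Vsig4-deficient libraries, and 1.25 and 1.07 in wild-type libraries. Out-of-frame TRBV4 rows with the same 15 bases averaged 1.21 and 0.98 in the Vsig4-deficient pair, against 1.57 and 1.01 in the wild-type pair. The difference, stop minus out of frame, was -0.09 ± 0.17 (SD, n = 4) and lower in 3 of 4 libraries (exact sign-flip permutation p = 0.375, two-sided). Productive TRBV4 rows averaged 1.72 and 1.32 in the Vsig4-deficient pair, against 2.01 and 1.69 in the wild-type pair. The stop rows differed from them by -0.58 ± 0.14 (SD, n = 4) and were lower in 4 of 4 libraries (exact sign-flip p = 0.125, the smallest that 4 libraries allow). This comparison was chosen after the TRBV4 share had been seen.

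Junction stops were the most frequent source, with 96 and 111 rows in Vsig4-deficient libraries and 113 and 164 in wild-type libraries. In 142 of the 484, all bases of the stop codon lay outside the V, D and J segments. In 75 rows the codon was TGA with its last 2 bases from the D segment, the ga of gggac, which TRBD1 and TRBD2 share. In 14 it was TAG with its last 2 bases from the D segment. In 56 the first 2 bases came from the V end, 33 of them from TRBV4, and in 57 the last 2 came from the J segment.

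With TRBD1 and TRBD2 pooled, the D segment was read in frame 2 more often in stop rows than in the other classes. Frame 2 places codon starts at the second base of the D segment, and it was taken from rows with at least 5 aligned D bases. It held 39.3% and 43.9% of such stop rows in Vsig4-deficient libraries, and 42.9% and 37.5% in wild-type libraries. Out-of-frame rows had 32.2% to 33.9% and productive rows 30.5% to 31.0%, so every pooled stop value lay above every pooled value of the other classes. For TRBD2 alone, frame 2 held 34.7% and 32.9% of stop rows in Vsig4-deficient libraries, and 37.5% and 39.6% in wild-type libraries. Out-of-frame rows had 31.3%, 34.6%, 32.2% and 34.0% in the same order, so Vsig4-deficient 2 went the other way. Among TRBV4 germline stops, frames 1, 2 and 3 held 43, 57 and 51 rows with TRBD1 and 35, 37 and 49 with TRBD2. Among junction stops alone, 184 of 364 rows with an assigned D frame were in frame 2, 50.5%. TRBD1 in frame 2 accounted for 53 of the TAG and 62 of the TGA junction stops, and TRBD2 in frame 2 for 8 TAG and 44 TGA. Of all stop rows 44.5% used TRBD1 and 30.4% TRBD2, against 44.2% and 32.3% of out-of-frame and 43.9% and 32.3% of productive rows.

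The junction stops included nearly all of the stop clonotypes with the highest counts. Among the 5 with the highest counts in each library, 19 of 20 had a junction stop, 1 a TRBV4 germline stop and none a substitution. All 20 had the maximum quality score and 18 were found in 1 library only. Their counts ran from 16 to 44 in Vsig4-deficient 1 and from 26 to 64 in Vsig4-deficient 2, against 23 to 39 in wild-type 1 and 20 to 39 in wild-type 2. TRBV31 (Vβ14), at chr6:41557693-41558371 on the far side of the J segments, was the V segment of 7, TRBV13-2 of 5 and TRBV3 of 4. The clonotype of the highest count in each library is shown with its stop codon in capitals, since these rows give the largest numbers behind any member.
Vsig4-deficient 1, TRBV4 TRBJ2-7, 44 counts: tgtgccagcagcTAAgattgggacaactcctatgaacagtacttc
Vsig4-deficient 2, TRBV31 TRBJ1-1, 64 counts: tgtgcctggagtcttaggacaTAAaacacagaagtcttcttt
wild-type 1, TRBV13-2 TRBJ1-5, 39 counts: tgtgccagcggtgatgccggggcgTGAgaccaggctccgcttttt
wild-type 2, TRBV3 TRBJ2-1, 39 counts: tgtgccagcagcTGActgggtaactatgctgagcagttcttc
The first is the germline stop of TRBV4, and in the last a t aligned to the TRBV3 end meets the ga of TRBD2, which makes TGA. The other 2 had the stop further in, at codons 8 and 9. The last also differed by 1 base, G13T, from a productive clonotype of 73 counts with the same library, V and J. It was the 1 clonotype of the 20 with such a productive clonotype of higher count.

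Stops by substitution had other features. There were 36 and 60 in J and 5 and 14 in V in Vsig4-deficient libraries, against 41 and 72 in J and 8 and 12 in V in wild-type libraries. Of these 248 rows 193 had a single count, and none was found in more than 1 library. The most frequent J changes turned the germline codon CAG into TAG (72 rows), TAC into TAA (38) and GAA into TAA (34). In V the codons TGC and TGT, which encode cysteine, were turned into TGA in 16 and 13 rows. Not all of these lay at the conserved cysteine, since TRBV1 has another TGC at codon 3. Of the 39 stops by substitution in V, 20 lay at codon 1 and 15 at codon 3, and TRBV1 was the V segment of 15. By kind of change, C-to-T led with 83, followed by G-to-T with 62, C-to-A with 57 and T-to-A with 28. Only changes that make a stop codon can enter this list, so the membership rule sets its order in part.

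Stop rows near a more abundant productive clonotype were therefore counted. A neighbour was a productive row of the same library, V and J that differed by 1 base in the CDR3. For the 322 stop rows with a neighbour of higher count, that neighbour had 12 counts at the median and 389 at most. None of the 50 productive clonotypes of highest count in each library was a neighbour of a stop row. A neighbour with at least 20 times the count was found for 4.61% and 3.17% of stop rows in Vsig4-deficient libraries, and for 6.22% and 3.28% in wild-type libraries. The same search from productive rows found 0.604% and 0.569% in the Vsig4-deficient pair, against 0.810% and 0.595% in the wild-type pair. The stop share was higher in 4 of 4 libraries, by 3.68 ± 1.32 percentage points (SD, n = 4; exact sign-flip permutation p = 0.125, two-sided). The highest ratio of counts was 29 for a stop row and 32 for a productive row, so the rule of 20 lies near the top of what the tables hold.

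At a ratio of 5 the shares were 22.1% and 26.2% of stop rows in Vsig4-deficient libraries, and 22.4% and 19.9% in wild-type libraries. For productive rows they were 4.36%, 5.13%, 5.05% and 5.13% in Vsig4-deficient 1 and 2 and wild-type 1 and 2. The definitions of the sources bear on this measure, since a stop by substitution is by construction 1 base from a codon of the germline and a TRBV4 germline stop is not, so the shares by source are a description. Of stops by substitution in J 64.6% had such a neighbour, and of those in V 66.7%, against 17.8% of junction stops and none of the 374 TRBV4 germline stops. Stop rows with a neighbour of at least 5 times their count had a quality score below the maximum in 12.1% of cases, against 4.66% of the other stop rows. The former had 1 count at the median and the latter 2, and quality was not compared at equal counts. Whether these rows are copies made during library preparation or sequencing was not tested.

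**Figure D4:**
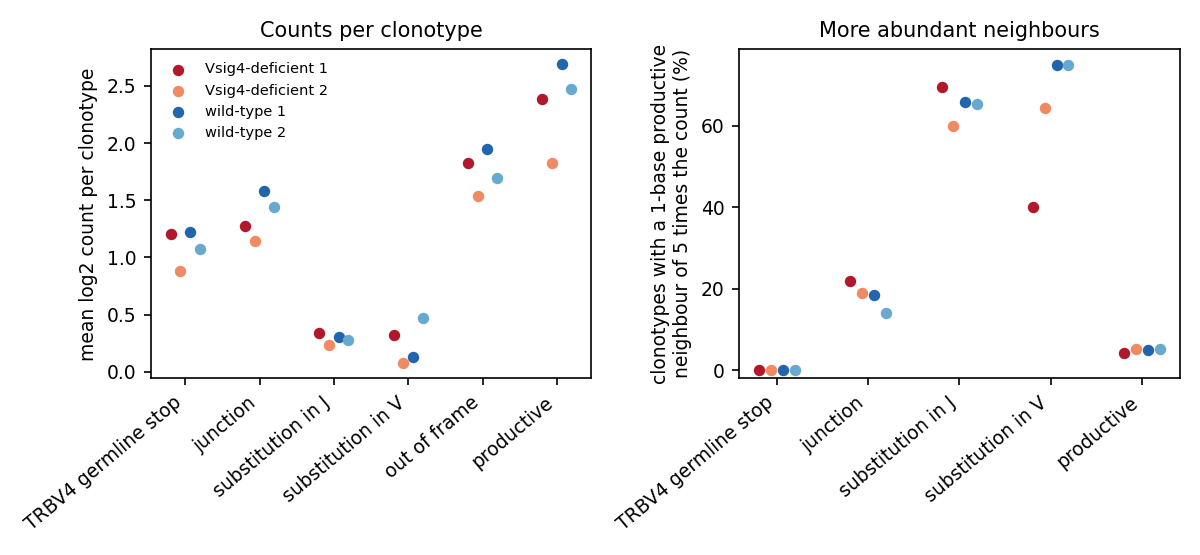
Left, mean log2 count per clonotype for stop rows by source and for out-of-frame and productive rows, and right, share of clonotypes in percent with a 1-base productive neighbour of at least 5 times their count, 1 point per library. Stops by substitution have the lowest counts and the highest shares of neighbours, and TRBV4 germline stops have no such neighbour.

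Examples of such pairs are shown with the changed codon in capitals.
TRBV23 TRBJ2-5, stop, 11 counts: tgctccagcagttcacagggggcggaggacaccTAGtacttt
TRBV23 TRBJ2-5, productive, 170 counts: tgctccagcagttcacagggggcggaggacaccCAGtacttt
TRBV13-2 TRBJ2-4, stop, 21 counts: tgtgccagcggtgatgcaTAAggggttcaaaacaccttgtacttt
TRBV13-2 TRBJ2-4, productive, 389 counts: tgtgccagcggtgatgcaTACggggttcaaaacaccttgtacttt
TRBV1 TRBJ2-4, stop, 2 counts: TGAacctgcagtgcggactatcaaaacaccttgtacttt
TRBV1 TRBJ2-4, productive, 47 counts: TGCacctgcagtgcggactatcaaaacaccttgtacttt
The first pair, from Vsig4-deficient 1, differs by C34T, from the productive to the stop clonotype, within TRBJ2-5. The second, from Vsig4-deficient 2, differs by C21A at the junction, and the third, from wild-type 2, by C3A in the cysteine codon. Few productive clonotypes had more than 1 stop neighbour: the highest number was 2, for a TRBV3 TRBJ2-2 clonotype of 22 counts in Vsig4-deficient 1 and a TRBV13-3 TRBJ1-1 clonotype of 13 counts in wild-type 1.

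Stop rearrangements had fewer counts per clonotype than either other class. The median was 2 and 1 counts in Vsig4-deficient libraries and 2 and 2 in wild-type libraries. Out-of-frame rows had medians of 3 and 2 in Vsig4-deficient libraries and 3 and 3 in wild-type libraries, and productive rows of 5 and 3, and 7 and 6. A single count was held by 47.0% and 61.5% of stop rows in Vsig4-deficient libraries, and by 43.2% and 43.4% in wild-type libraries. Vsig4-deficient 2 also had the largest single-count share among productive rows, 33.0%, against 17.6% to 21.4% in the other libraries. On the mean log2 scale stop rows lay -1.31 ± 0.20 from productive rows and -0.72 ± 0.06 from out-of-frame rows (SD, n = 4), lower in 4 of 4 libraries each (exact sign-flip permutation p = 0.125 each).

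The counts followed the source of the stop. The mean log2 count over the libraries was 1.37 for junction stops and 1.10 for TRBV4 germline stops, against 0.28 and 0.24 for substitutions in J and V. Only 1 of the 78 stop rows with at least 10 counts was a substitution in V or J, 13 were TRBV4 germline stops and 64 junction stops. With rows that had a neighbour of 5 times their count left out of both in-frame classes, a step added after the data were seen, stop rows lay -0.50 from out-of-frame rows and -1.17 from productive rows. The step takes out mainly stop rows of low count, and out-of-frame rows were not searched for neighbours. A smaller difference from out-of-frame rows was therefore partly set in advance.

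The CDR3 of stop rows was slightly longer in nucleotides. It averaged 43.4 and 42.2 in Vsig4-deficient libraries and 42.3 and 42.7 in wild-type libraries. Productive rows averaged 41.8 and 41.9 in the Vsig4-deficient pair, against 41.8 and 41.8 in the wild-type pair. The difference of 0.85 ± 0.53 nucleotides from productive rows and of 0.50 ± 0.55 from out-of-frame rows (SD, n = 4) was positive in 4 of 4 libraries, with an exact sign-flip permutation p of 0.125 for each. With TRBV4 left out of every class the differences were 0.38 and 0.03, positive in 2 and 1 of 4 libraries. The difference from out-of-frame rows rested in large part on Vsig4-deficient 1, and was 0.24 without that library. Weighted by counts it was 0.35, positive in 2 of 4 libraries (exact sign-flip permutation p = 0.75). TRBV4 germline stops averaged 43.8 nucleotides and junction stops 42.2.

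V segment use was compared between classes within libraries by edgeR's quasi-likelihood test with Benjamini-Hochberg adjustment at 0.05. Against productive rows, 16 of 24 tested V segments were called (66.7%), 4 higher and 12 lower in stop rows. Against out-of-frame rows 11 of 24 were called (45.8%), 1 higher and 10 lower. Shares sum to 100% in each class, so the TRBV4 share lowers those of all other segments: the median log2 ratio over the 24 segments was -0.80 against productive rows and -0.54 against out-of-frame rows. With TRBV4 left out of every class, 3 segments of 23 were higher than in productive rows and none was lower (median -0.14; 5 had an unadjusted p under 0.05). Against out-of-frame rows 1 was then higher and 1 lower.

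TRBV4 had a log2 ratio of 3.29 ± 0.11 (SE) against productive rows (edgeR adjusted p = 1.47e-40) and of 2.30 ± 0.10 against out-of-frame rows (edgeR adjusted p = 4.56e-33). The membership rule sets this direction, since the germline stop of TRBV4 meets it alone, as in 374 of its 436 stop rows. These p-values therefore answer no open question. Junction stops of TRBV4 numbered 3.01 per 100 out-of-frame rows over the libraries, against 24.3 for all its stop rows. TRBV22, which RefSeq annotates as a pseudogene, had 2 and 1 stop rows in Vsig4-deficient libraries and 3 and 5 in wild-type libraries, and a log2 ratio of 4.97 ± 0.48 against productive rows (edgeR adjusted p = 3.60e-12). TRBV21 had 1 and 1 stop rows in the Vsig4-deficient pair, against 2 and 3 in the wild-type pair, with a log2 ratio of 3.33 ± 0.58 (edgeR adjusted p = 4.04e-05). Against out-of-frame rows neither was called, with log2 ratios of 0.28 ± 0.49 for TRBV22 and 0.06 ± 0.60 for TRBV21 (SE).

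TRBV31 held a position between the other classes. It made up 3.69% and 5.95% of stop rows in Vsig4-deficient libraries and 4.98% and 6.82% in wild-type libraries. Its share was 12.1% and 15.99% of out-of-frame rows in Vsig4-deficient libraries and 11.8% and 12.8% in wild-type libraries, and 3.13% to 3.27% of productive rows. The log2 ratio was 0.79 ± 0.23 (SE) against productive rows (edgeR adjusted p = 0.00207) and -1.23 ± 0.18 against out-of-frame rows (edgeR adjusted p = 2.72e-08). Both calls were also made with TRBV4 left out, at 1.46 and -0.64 (edgeR adjusted p = 7.35e-07 and 0.0275).

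Among the segments called, those with the largest negative log2 ratios against productive rows were TRBV5 (-1.38), TRBV17 (-1.31), TRBV14 (-1.30), TRBV12-1 (-1.23) and TRBV19 (-1.16). Among those called against out-of-frame rows they were TRBV5 (-1.49), TRBV17 (-1.36), TRBV2 (-1.34), TRBV31 (-1.23) and TRBV19 (-1.06). Of these, TRBV31 was called with TRBV4 left out. After TRBV4, the segments with most stop rows were TRBV13-2 with 101, TRBV3 with 72, TRBV1 (Vβ2) with 65 and TRBV31 with 62.

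The Vβ8 segments TRBV13-1, TRBV13-2 and TRBV13-3 together made up 18.4% and 25% of stop rows in Vsig4-deficient libraries, and 14.9% and 15.9% in wild-type libraries, against 30.0% to 35.4% of productive rows over the libraries. All 3 were lower than in productive rows and than in out-of-frame rows, and none with TRBV4 left out. The Vβ5 segments TRBV12-1 and TRBV12-2 made up 7.83% and 8.33% in the Vsig4-deficient pair, and 11.2% and 6.57% in the wild-type pair, and 16.1% to 18.2% of productive rows over the libraries. With TRBV4 left out, TRBV12-2 was the segment higher than in out-of-frame rows (log2 ratio 0.95, edgeR adjusted p = 0.00359). Of the 4 V segments that RefSeq annotates as pseudogenes, TRBV29 had 43 stop rows and TRBV22 had 11, and TRBV8 and TRBV28 had none. Despite that annotation TRBV29 had 15879 productive rows, 17.4 per out-of-frame row, against 72 and 0.389 for TRBV22.

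**Figure D5:**
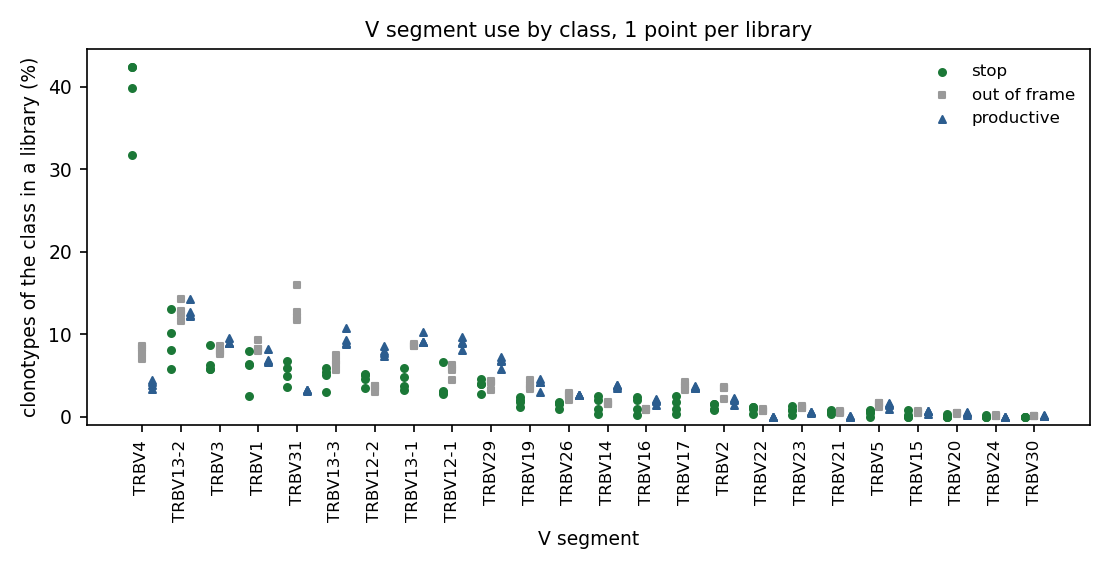
Share of the clonotypes of each class in a library, in percent, for the 24 tested V segments, 1 point per library. TRBV4 lies between 31.7% and 42.4% in stop rows and under 9% in the other classes, and TRBV31 is highest in out-of-frame rows.

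J segments differed less. TRBJ2-7 was used by 237 stop rows, TRBJ2-5 by 179, TRBJ2-1 by 162, TRBJ2-4 by 110 and TRBJ2-3 by 89. Of 12 segments 2 were called against productive rows (16.7%) and 1 against out-of-frame rows (8.33%). TRBJ2-5 made up 16.1% and 17.5% of stop rows in Vsig4-deficient libraries and 16.6% and 15.2% in wild-type libraries, and 11.98% to 12.2% of productive rows. Its log2 ratio was 0.42 ± 0.09 (SE) against productive rows (edgeR adjusted p = 0.00128) and 0.40 ± 0.09 against out-of-frame rows (edgeR adjusted p = 0.00685). TRBJ1-1 was lower than in productive rows, with a log2 ratio of -0.70 ± 0.15 (edgeR adjusted p = 0.000505). The TRBJ2 cluster held 75.6% and 71.0% of stop rows in the Vsig4-deficient pair, and 78.0% and 74.0% in the wild-type pair, and 67.7% to 69.4% of productive rows.

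The J calls moved with the rows of lowest count. None was made once single-count rows were left out, nor once rows with a neighbour of 5 times their count were left out. The TRBJ2-5 call against out-of-frame rows was also not made by DESeq2, nor by edgeR without wild-type 1, Vsig4-deficient 1 or Vsig4-deficient 2. Substitutions in J fell on TRBJ2-7 in 64 rows, TRBJ2-5 in 46 and TRBJ2-1 in 43 of 209. Over the libraries TRBJ2-7 held 18.4% to 19.9% of productive rows, TRBJ2-5 11.98% to 12.2% and TRBJ2-1 13.7% to 15.2%. Their germline ends hold 4, 3 and 3 codons that 1 substitution can turn into a stop, against 1 to 3 in the other J segments. Whether substitutions favoured these segments was not tested.

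Few stop clonotypes were shared between libraries. Of 1079 distinct stop clonotypes (CDR3 nucleotides, V and J) 23 were found in 2 or more libraries, 2.13%, against 4.31% of out-of-frame and 9.49% of productive clonotypes. The pair with most shared stop clonotypes was Vsig4-deficient 1 and 2 with 10, followed by Vsig4-deficient 2 and wild-type 2 with 8. The 4 found in 3 libraries had their stop at the junction in 3 cases and in the TRBV4 germline end in 1.
TRBV31 TRBJ2-1: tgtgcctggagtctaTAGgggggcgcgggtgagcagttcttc
TRBV1 TRBJ2-7: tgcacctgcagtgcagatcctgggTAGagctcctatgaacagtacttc
TRBV4 TRBJ2-7: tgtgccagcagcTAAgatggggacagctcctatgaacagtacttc
TRBV21 TRBJ1-4: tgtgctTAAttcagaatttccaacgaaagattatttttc
The first had 1 and 1 counts in Vsig4-deficient libraries and 20 in wild-type 2. The second had 11 and 2 counts in Vsig4-deficient libraries and 1 in wild-type 2, the third 2 and 6 in Vsig4-deficient libraries and 3 in wild-type 2. The fourth had 1 count in Vsig4-deficient 2, against 2 counts in wild-type 1 and 1 in wild-type 2.

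Between the genotypes no segment of the stop rows was called. edgeR's quasi-likelihood test called 0 of 17 V segments (0%), with 2 at an unadjusted p under 0.05, and 0 of 12 J segments (0%), with 0 at that level. DESeq2 called 0 of each. The V segments with an unadjusted p under 0.05 were TRBV14, with 2 and 1 stop rows in the Vsig4-deficient pair, against 6 and 8 in the wild-type pair, and TRBV17, with 2 and 1 against 6 and 7 (edgeR adjusted p = 0.375 for both). TRBV4 had a log2 ratio of -0.16 ± 0.27 (SE) and an edgeR adjusted p of 0.625. A test of whether the difference between stop and productive rows depended on genotype called 0 of 24 V and 0 of 12 J segments, with none at an unadjusted p under 0.05.

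By source, junction stops made up 0.180% ± 0.0322 of in-frame clonotypes in Vsig4-deficient libraries and 0.229% ± 0.0108 in the wild type (SD, n = 2 per genotype), without overlap. TRBV4 germline stops made up 0.132% ± 0.0524 in Vsig4-deficient libraries, against 0.182% ± 0.0242 in the wild type, and the groups overlapped. Substitutions in J made up 0.0807% ± 0.00639 in Vsig4-deficient libraries, against 0.0914% ± 0.00799 in the wild type, also without overlap. Substitutions in V made up 0.0152% ± 0.00658 in Vsig4-deficient libraries and 0.0165% ± 0.000394 in the wild type, with overlap. The exact permutation p over 4 such tests was 0.333 at the lowest and 0.667 after Benjamini-Hochberg adjustment, and 0.333 is the smallest that this design allows.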

How the data were processed

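TRB clonotype tables of 4 libraries were used, 2 per genotype. Per the file headers, each row of the deposited tables gives a clone count for a CDR3 nucleotide sequence with its segments and alignments. The deposited counts are whole and not normalized. No source used here states the program, its filters, or whether a count is a read or a molecule. The clone fraction deposited beside it equals each count divided by the table's total. The lowest base quality of a CDR3 is deposited as a score between 25 and 37. The submitters' processing notes name mm10. Segment positions were taken from RefSeq GRCm38.p6, with 26 of 26 V and 12 of 12 J segments matched by symbol.

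Germline ends were read from clonotypes aligned without mutations. Intervals are 95% Wilson intervals and cover counting error only. Values of 2 against 2 libraries were compared by exact permutation over 6 splits, and classes within libraries by 16 sign flips. Segments with at least 10 clonotypes over the libraries were tested on numbers of clonotypes with edgeR 4.0.16 (library totals as offsets, library as a block between classes, threshold 0.05), with DESeq2 1.42.0 as an alternative, in R 4.3.3. Other steps used Python 3.11.15, numpy 2.4.6, pandas 2.3.3, SciPy 1.17.1 and matplotlib 3.10.9. The functions and the edgeR step were tested on simulated data.

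The members, lists and tests were chosen with earlier results of these data known. Named were V and J segments past the threshold (the 5 largest in each direction where more than 10 passed), the 5 most used, Vβ8, Vβ5, both J clusters and pseudogene V segments, the 5 stop clonotypes of highest count per library, productive clonotypes with most stop neighbours, of which examples are shown, and stop clonotypes in 3 libraries. Alternatives were equal depth, single-count rows, 1-base copies or rows below the maximum quality left out, another denominator, other count ratios and averages, weighting by counts, TMM, DESeq2, no filter, a replicate block and each library left out. Leaving out TRBV4, or 1-base copies at a ratio of 5, was added after the data were seen.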

Additional observations from a re-analysis of the deposited data

How the results depend on the processing

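Every mean difference of shares, counts, neighbours and length kept its sign under all alternatives run. Single libraries did not always do so for length: without TRBV4, 1 of 4 was positive against out-of-frame rows. The p-values could not reach 0.05, since the smallest is 0.333 for the exact permutation between genotypes and 0.125 for the sign flips between classes. Counts of called segments moved more. V segments called against productive rows numbered 16, but 5 with DESeq2, 9 with TMM, 3 with TRBV4 left out, and 10 to 14 with a library left out, lowest without Vsig4-deficient 1. Against out-of-frame rows they numbered 11, but 3 with DESeq2, 5 with TMM, 2 with TRBV4 left out, and 5 to 11 with a library left out, lowest without wild-type 2. J segments called against productive rows numbered 2, but 0 with single-count rows left out (1 at an unadjusted p under 0.05), 0 with copies at a ratio of 5 left out (4) and 1 with TRBV4 left out. Against out-of-frame rows the 1 call was lost with DESeq2 (0), with single-count rows left out (0), with copies at a ratio of 5 left out (0) and without wild-type 1, Vsig4-deficient 1 or Vsig4-deficient 2 (0 to 1). Between genotypes 0 to 1 J segments were called with a library left out, the 1 without Vsig4-deficient 1. The cause of these changes was not tested, beyond the smaller number of rows or the changed sum of shares in each.

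The neighbour share, 3.68 percentage points higher in stop rows, was 19.3 at a ratio of 1, 17.7 at a ratio of 5 and 6.02 among single-count rows. At a ratio of 100 no row of either class had a neighbour, so that setting gives no value. With a library left out the genotype difference ran from -0.161 to -0.0597 points by clonotypes and from -0.0726 to -0.0379 by counts. The difference from productive rows in length, 0.85, was 1.02 weighted by counts, with 3 of 4 libraries positive. Replicate numbers are shared between genotypes, but deviations of same-numbered libraries correlated at -0.06 for V and 0.23 for J segments. With 2 libraries per genotype the pairs mirror each other and give 1 value each, too few to decide, and the labels do not tie a number to a shared batch. With the replicate block 0 V and 0 J segments were called, as without it. Germline and junction stops rest on 858 rows in all, and stop rows have 1 to 2 counts at the median, so segments with under 10 stop rows carry wide errors.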

Other observations

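Out-of-frame rearrangements also hold stop codons within the translated part of the CDR3. The deposited translation showed one in 405 and 381 out-of-frame rows of Vsig4-deficient libraries (8.11% and 7.74%), and in 404 and 609 of wild-type libraries (8.46% and 7.92%). TRBV4 was the V segment of 48.1% and 42.3% of these in Vsig4-deficient libraries, and of 49.5% and 50.6% in wild-type libraries.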
